A study of Homo sapiens with 6 samples.

Results

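The genes described here encode the subunits of the transcription factor NF-kB (NFKB1, NFKB2, REL, RELA and RELB) and the enzymes just above them (CHUK, IKBKB, IKBKG and MAP3K14). They were chosen by gene symbol, and all 9 were found among the 22354 loci of the count table. RNA was sequenced from HTori-3.1, an established line of normal human thyroid cells, in 3 libraries labelled control and 3 labelled BMAL1 knockout. The knockout cells had received Cas9 and a guide against BMAL1 by virus, were selected with puromycin and were grown from single clones, so a difference between the groups may also be a difference between clones. Cells of both groups had been exposed to 2 μM etoposide, an inhibitor of topoisomerase II that breaks DNA and drives cells into senescence. The treatment protocol gives 24 h of exposure and the treatment label gives 12 h. Nothing in the labels says that the replicates were separate cultures, so p-values measure the spread between these libraries, which may be technical.

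NF-kB is a family of dimers that are held in the cytoplasm by inhibitory IkB proteins. In the canonical branch, a kinase complex of IKBKB, CHUK and the scaffold IKBKG marks the IkB proteins for destruction and frees dimers such as that of RELA with the product of NFKB1. In the noncanonical branch, MAP3K14 activates CHUK, which leads to processing of the NFKB2 protein and to dimers with RELB. Broken DNA also reaches the complex through IKBKG, and NF-kB drives much of the inflammatory secretion of senescent cells. Most of this control acts on proteins, and only transcripts were measured here.

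The libraries labelled control held 26893063, 27029060 and 28513703 counts and the libraries labelled BMAL1 knockout 43148059, 29860233 and 43563391. Levels are given as CPM, the counts on a gene relative to the total of its library after TMM scaling. The transcript of the targeted gene went against its label: BMAL1, on hg38 at chr11:13276652-13387266 on the forward strand, measured 11.3, 12.2 and 14.6 CPM in control libraries and 17.9, 19.8 and 19.4 CPM in knockout libraries. Every library labelled BMAL1 knockout thus lay above every library labelled control, and the groups are named by their labels throughout. Its log2 fold change of 0.58 had an adjusted p of 0.0237 (edgeR's quasi-likelihood test, Benjamini-Hochberg adjusted). That adjusted p was 0.05 or more when control replicate 1, control replicate 2, knockout replicate 2 or knockout replicate 3 was left out, and it reached 0.129 without control replicate 2. A guide can abolish a protein and leave its transcript, and the labels say that the clones were checked by western blot, so the transcript alone does not settle the knockout. NR1D1 and NR1D2, which BMAL1 and CLOCK activate, were lower in knockout libraries, with log2 fold changes of -1.25 and -0.78 (adjusted p = 0.00121 and 0.00277 by the same edgeR test); both were chosen after their values were seen, and NR1D1 overlaps THRA on the opposite strand, so its level is uncertain.

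The markers of the labelled tissue were incomplete. Of 7 thyroid markers, PAX8 and FOXE1, transcription factors of the thyroid lineage, were the ones kept by the low-count filter. PAX8 measured 134 ± 15.4 CPM (SD, n = 3) in control and 109.6 ± 19.1 CPM (SD, n = 3) in knockout libraries, with overlap. FOXE1 measured 47.99 ± 0.717 and 39.99 ± 3.29 CPM (SD, n = 3), without overlap. Both were lower at an unadjusted p under 0.05 in edgeR, as were 7.76% of all loci tested, and neither was called after adjustment. Over all loci tested, 11.5% were lower without overlap. TG, TSHR and SLC5A5, which serve hormone synthesis and its control, were each under 1 CPM on average, and NKX2-1 had 0 counts in all 6 libraries. The epithelial keratins KRT8 and KRT18 were abundant, at 1408 ± 41.4 and 852 ± 9.45 CPM (SD, n = 3) in control libraries. Both were lower in knockout libraries without overlap, KRT18 at 602 ± 44.2 CPM (SD, n = 3; adjusted p = 0.00588 by the same edgeR test) and KRT8 at 1157 ± 8.11 CPM (SD, n = 3; adjusted p = 0.0517 by that test). KRT18 shares 17.1% of its exon bases with KRT8 on the opposite strand. Whether the counting used strand is not given, so reads of either could be counted under the other. DESeq2 called 2 of the 4 epithelial markers kept by the filter, both lower, beside 4.47% of all loci in either direction. The other 3 epithelial markers were scarcer: KRT19 measured 7.67 ± 0.752 CPM in control and 8.97 ± 0.993 CPM in knockout libraries (SD, n = 3), with overlap, and EPCAM and CDH1 were each under 1 CPM on average.

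None of the 9 genes passed an adjusted p of 0.05 in edgeR's quasi-likelihood test, Benjamini-Hochberg adjusted, where 2.37% of the 14860 loci tested did, 1.01% higher and 1.36% lower in knockout libraries. All 9 had been kept by the filter on low counts. The 150 higher and 202 lower loci behind these shares became 175 and 155 when library size was the only scaling, and 323 and 360 without knockout replicate 1. Without control replicate 1, 2 or 3 or knockout replicate 2 or 3 they numbered 39 to 103 higher and 65 to 146 lower. In each of these fits edgeR called 0 of the 9 genes. DESeq2, which called 4.47% of the loci it tested, and limma-voom, which called 2.1%, also called 0 of 9. At an unadjusted p under 0.05 edgeR counted 3 of 9, against 16.9% of all loci: CHUK and REL higher (9.1% of all loci) and NFKB1 lower (7.76% of all loci). A fold change over 2 with an unadjusted p under 0.01, the thresholds of the study's methods, was reached by 0 of 9 and by 0.915% of all loci. The groups did not overlap for 5 of 9, namely NFKB1, IKBKB and IKBKG lower and REL and CHUK higher. Over all loci tested this held for 23.3%, of which 11.8% were higher and 11.5% lower. With 3 libraries in each group, the smallest p that exact permutation allows is 0.1.

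The fitted differences were small. Of the 9 genes 4 were higher and 5 lower in knockout libraries, and the median log2 fold change was -0.13, beside 0.01 over all loci tested. RELB had the largest absolute log2 fold change of the 9, 0.24, and 74.5% of all loci tested had a smaller one. The 95% intervals bounded the changes to at most 1.56-fold for RELB and to at most 1.35-fold for each of the others. In these bulk libraries fewer cells of a type and less RNA per cell cannot be told apart.

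**Figure D1:**
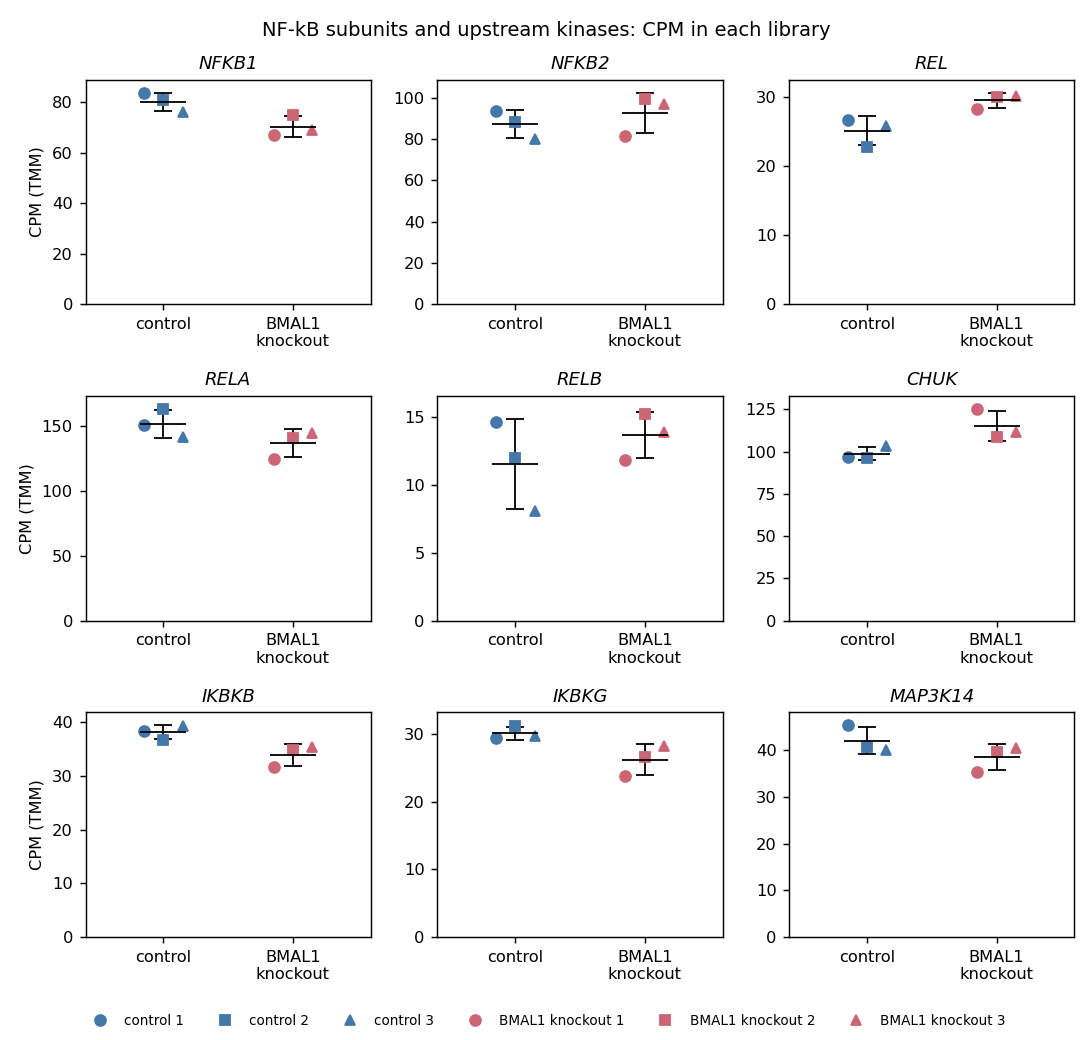
CPM of each of the 9 genes (vertical axes, from 0) in the 3 control and 3 BMAL1 knockout libraries; each symbol is a library, the bar is the mean and the whiskers are the SD. The groups overlap for NFKB2, RELA, RELB and MAP3K14 and do not for the other genes, and knockout replicate 1 is the lowest library for 5 of the 9.

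NFKB1 encodes a precursor that is processed into the DNA-binding subunit of the canonical dimer, and it lies on hg38 at chr4:102501330-102617302 on the forward strand. It measured 83.5, 80.7 and 76.2 CPM in control libraries and 67.0, 74.9 and 69.2 CPM in knockout libraries. All knockout values lay below all control values, although the gap between the closest pair, control replicate 3 and knockout replicate 2, was narrow. Its log2 fold change was -0.19 (SE 0.079, 95% interval -0.36 to -0.02, unadjusted p = 0.0348, adjusted p = 0.251 by edgeR's quasi-likelihood test, Benjamini-Hochberg adjusted). Its usual partner RELA, at chr11:65653599-65663090 on the reverse strand, carries the transactivation domain of the same dimer. RELA measured 150.4, 163 and 142 CPM in control libraries and 124, 141 and 145 CPM in knockout libraries. Here the groups overlapped, since knockout replicate 3 lay above control replicate 3, and knockout replicate 1 was the lowest of the 6 libraries. RELA had a log2 fold change of -0.15 (SE 0.085, 95% interval -0.34 to 0.03), and -0.09 without knockout replicate 1 and -0.10 without control replicate 2.

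REL, the other subunit with a transactivation domain that pairs mainly with the NFKB1 product, lies at chr2:60881491-60931612 on the forward strand. Its levels were 26.7, 22.7 and 25.9 CPM in control libraries and 28.3, 30.01 and 30.2 CPM in knockout libraries. All knockout libraries were higher, opposite in direction to RELA and NFKB1. The log2 fold change was 0.23 (SE 0.093, 95% interval 0.03 to 0.44, unadjusted p = 0.0291, adjusted p = 0.229 by the same edgeR test). REL shares 33.3% of its exon bases with ENSG00000267520, a noncoding gene on the same strand, so reads of that gene could be counted under REL and its level is uncertain.

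The noncanonical subunits differed in precision. NFKB2, at chr10:102394110-102402524 on the forward strand, encodes the precursor that this branch processes, and measured 93.5, 88.1 and 80.2 CPM in control libraries and 81.5, 99.4 and 97.1 CPM in knockout libraries. Its groups overlapped, with knockout replicate 1 next to the lowest control library (log2 fold change 0.09, SE 0.095). Leaving out any library but control replicate 2 moved that value by over 1.5 times, from 0.03 without control replicate 3 to 0.17 without knockout replicate 1; it was 0.14 without control replicate 1, 0.03 without knockout replicate 2 and 0.05 without knockout replicate 3. RELB, its usual partner, lies at chr19:45001461-45038192 on the forward strand. It measured 14.6, 12.0 and 8.03 CPM in control libraries and 11.8, 15.2 and 13.9 CPM in knockout libraries. The control libraries of RELB spread over almost the whole range, with a coefficient of variation of 28.7%, against 3.33% to 8.44% for the other 8 genes. The log2 fold change of RELB was 0.24 (SE 0.18, 95% interval -0.16 to 0.64); without control replicate 3, its lowest library, it was 0.04, without control replicate 1 it was 0.45, and without knockout replicate 2 it was 0.16.

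Promoters were searched because NFKB1, NFKB2 and REL are themselves known targets of NF-kB, and because BMAL1 binds E-boxes with its partner CLOCK. Windows from 250 bases before to 50 bases after a gene start were taken from RefSeq (GRCh38.p14) and matched 7 of the 9 symbols, with 14 windows; RELB and IKBKB were not among them. The E-box CACGTG, searched on both strands, was in 0 of the 14 windows and in 7.26% of all 35116 windows. The kappa-B motif, searched on both strands, was in 4 of the 14, belonging to REL, NFKB1 and NFKB2, and in 11.3% of all windows. The matches of REL and NFKB1 and 1 place in an NFKB2 window are printed so that the motif can be compared between subunit genes. Capitals mark the motif, and where matches overlap, as in REL and NFKB2, they are capitalised together. The stretches are shown 5′ to 3′ on the forward strand.
REL, chr2:60881518-60881547: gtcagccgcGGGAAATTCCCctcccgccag
NFKB1, chr4:102501300-102501329: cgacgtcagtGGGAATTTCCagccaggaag
NFKB2, chr10:102394462-102394491: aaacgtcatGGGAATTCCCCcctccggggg
The motif began 47 bases before the RefSeq start in REL, 49 bases before it in NFKB1 and 107 bases before it in NFKB2. By GENCODE v44 the stretch of NFKB1 lies upstream of the gene, and those of REL and NFKB2 lie in exons but not in coding sequence. Further matches in NFKB2 windows, not printed here, began 78, 176 and 21 bases before a RefSeq start. The 3 genes with the motif did not share a direction, as NFKB1 was lower, REL higher and NFKB2 close to its control level. Among all genes tested that have a window, 2.25% of the 1910 with the motif and 2.26% of the 8993 without it had an adjusted p under 0.05 in edgeR's quasi-likelihood test, Benjamini-Hochberg adjusted.

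CHUK, the kinase shared by both branches, lies at chr10:100188300-100229596 on the reverse strand and had the smallest unadjusted p of the 9 genes. Its counts were 2599, 2569 and 2898 in control libraries and 5338, 3311 and 4931 in knockout libraries, which scaled to 96.9, 96.1 and 103 CPM and to 125, 108 and 111 CPM. All knockout libraries were higher, and replicate 1 stood above the other knockout libraries. The log2 fold change was 0.22 (SE 0.080, 95% interval 0.04 to 0.39, unadjusted p = 0.0191, adjusted p = 0.190 by edgeR's quasi-likelihood test, Benjamini-Hochberg adjusted).

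IKBKB, at chr8:42271302-42332460 on the forward strand, encodes the kinase that phosphorylates IkB proteins in the canonical branch. It measured 38.4, 36.6 and 39.2 CPM in control libraries and 31.6, 34.8 and 35.4 CPM in knockout libraries. The knockout libraries were thus all lower, with replicate 1 the lowest (log2 fold change -0.17, SE 0.085, 95% interval -0.36 to 0.02). IKBKG, at chrX:154541199-154565046 on the forward strand, encodes the scaffold, which has no kinase activity of its own. Its levels were 29.4, 31.3 and 29.7 CPM in control libraries and 23.8, 26.6 and 28.3 CPM in knockout libraries. Again all knockout libraries were lower and replicate 1 was the lowest (log2 fold change -0.20, SE 0.093, 95% interval -0.40 to 0.00). IKBKG has a near-identical pseudogene copy, IKBKGP1, so its level is uncertain.

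MAP3K14, at chr17:45263119-45317029 on the reverse strand, encodes the kinase that starts the noncanonical branch. It measured 45.3, 40.8 and 40.03 CPM in control libraries and 35.4, 39.7 and 40.5 CPM in knockout libraries. The groups overlapped, and knockout replicates 2 and 3 lay beside control replicates 2 and 3 (log2 fold change -0.13, SE 0.091). Without control replicate 1 or without knockout replicate 1 the log2 fold change was -0.07. The gene shares 15.1% of its exon bases with MAP3K14-AS1 on the opposite strand, and whether the counting used strand is not given in the sources used here.

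Levels of different genes were compared as CPM per kb of exon. In control libraries RELA was the most abundant of the 9 at 27.8 ± 1.94 CPM per kb (SD, n = 3), ahead of NFKB2 at 15.6 ± 1.197 and CHUK at 14.3 ± 0.589. MAP3K14 (7.42), IKBKG (5.55), NFKB1 (5.11), RELB (3.85) and IKBKB (3.45 CPM per kb) followed, and REL was the least abundant at 1.47 ± 0.124 CPM per kb (SD, n = 3). The neighbours in this order whose control libraries overlapped were NFKB2 with CHUK, NFKB1 with RELB and RELB with IKBKB. In knockout libraries RELA stayed at the top (25.0 ± 1.97 CPM per kb) and REL at the bottom (1.72 ± 0.0614), and CHUK at 16.6 CPM per kb overlapped NFKB2 at 16.6 CPM per kb. There IKBKG, RELB and NFKB1, at 4.83, 4.56 and 4.49 CPM per kb, overlapped as neighbours too.

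The order depended on the length used. Divided by the length of the longest transcript in place of all exons, NFKB1 moved from rank 6 to rank 4 in control libraries, with 11.4 CPM per kb. MAP3K14 moved from rank 4 to rank 6, with 9.18 CPM per kb. RELA, NFKB2 and CHUK stayed the top 3 and REL the lowest.

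**Figure D2:**
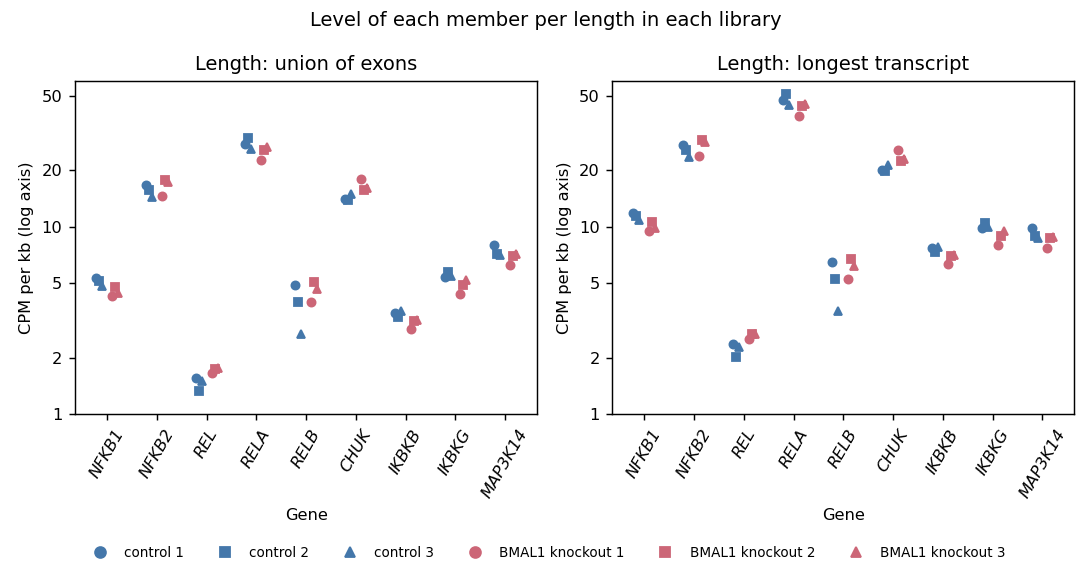
CPM per kb of each of the 9 genes on a log axis, with the length taken as the union of all exons (left) or the longest transcript (right); each symbol is a library. RELA is highest and REL lowest with either length, while NFKB1 ranks above MAP3K14 only with the longest transcript.

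Within a library, shares do not depend on its scaling. Of the summed per-length level of the 5 subunits, RELA made up 49.2%, 53.2% and 52.6% in control libraries and 48.2%, 46.7% and 48.5% in knockout libraries. NFKB2 made up 29.9%, 28.2% and 29.1% against 30.9%, 32.3% and 31.8%. Neither share overlapped between the groups, that of RELA being lower in knockout libraries and that of NFKB2 higher. The share of NFKB1 was lower without overlap (9.51 ± 0.332% against 8.59 ± 0.492%, SD, n = 3), that of REL was higher without overlap (2.73 ± 0.349% against 3.30 ± 0.173%), and that of RELB overlapped. Of the 4 upstream genes, CHUK made up 45.4%, 46.1% and 48.2% in control libraries and 57.3%, 51.1% and 50.9% in knockout libraries. The shares of IKBKB and IKBKG were lower without overlap, and that of MAP3K14 overlapped. No test was made on these shares.

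Ratios of counts chosen after the levels had been seen lay apart in the same directions, with no length involved. CHUK had 2.52, 2.62 and 2.64 counts per count of IKBKB in control libraries and 3.96, 3.12 and 3.15 in knockout libraries. NFKB2 had 1.12, 1.09 and 1.052 counts per count of NFKB1 in control libraries and 1.22, 1.33 and 1.40 in knockout libraries. REL had 0.178, 0.139 and 0.182 counts per count of RELA in control libraries and 0.227, 0.214 and 0.208 in knockout libraries. All 3 ratios were higher in every knockout library than in any control library, by 1.31, 1.21 and 1.30 times on average. The ratios of NFKB1 to RELA, of IKBKG to IKBKB and of RELB to RELA overlapped between the groups, the last with a mean 1.32 times as high in knockout libraries. Because the pairs were picked for their direction, these ratios are a description with no test.

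GC content varied with the difference between the groups over the whole table. GC content was that of each gene's longest transcript, not of all its exons. The median log2 fold change was 0.08 for genes of at most 36% GC and between -0.02 and -0.01 in each band above 44%. CHUK, NFKB1 and REL are AT-rich, at 36.3%, 35.97% and 38.7% GC, while RELB, NFKB2 and IKBKG are at 64.9%, 62.4% and 62.1%. With each library's trend with GC content removed, an alternative chosen after seeing the data, the log2 fold change of CHUK was 0.15 and that of REL was 0.19. NFKB1, as AT-rich as CHUK, moved away from 0, to -0.25. The log2 fold change of CHUK minus that of IKBKB went from 0.39 to 0.30, and REL minus RELA from 0.38 to 0.31. NFKB2 minus NFKB1 went the other way, from 0.27 to 0.36. The directions of all 9 were kept, and 0 of 9 passed an adjusted p of 0.05 in that fit, where 484 genes were higher and 593 lower.

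Several of the genes lay among chromosome neighbours whose values were on the same side of 0. Of the 40 tested genes nearest to REL, 20 on either side, 38 were higher in knockout libraries and their median log2 fold change was 0.21, beside 0.23 for REL. Around RELA 32 of 40 were lower, with a median of -0.10 beside -0.15 for RELA. Around NFKB2 33 of 40 were higher, with a median of 0.11 beside 0.09 for NFKB2. REL, RELA and NFKB2 thus sat within 0.06 of the median of their neighbourhood. Around CHUK, on the same chromosome arm as NFKB2 and with some of the same neighbours, 32 of 40 were higher with a median of 0.11, and CHUK at 0.22 lay above 75.0% of them. With 10 genes on either side the median around CHUK was 0.06 and CHUK lay above 85.0% of them. That around NFKB2 was then 0.07, that around RELA -0.07 and that around REL 0.25. The neighbours of NFKB1, RELB, IKBKB, IKBKG and MAP3K14 had medians between -0.01 and 0.01 with up to 20 genes on either side, 36 in all for IKBKG and 40 for the others, and at most 0.04 with 10. Against them NFKB1 differed by -0.19, IKBKB by -0.18, IKBKG by -0.19, MAP3K14 by -0.14 and RELB by 0.24 (log2). The part of chromosome position in these values was not tested.

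**Figure D3:**
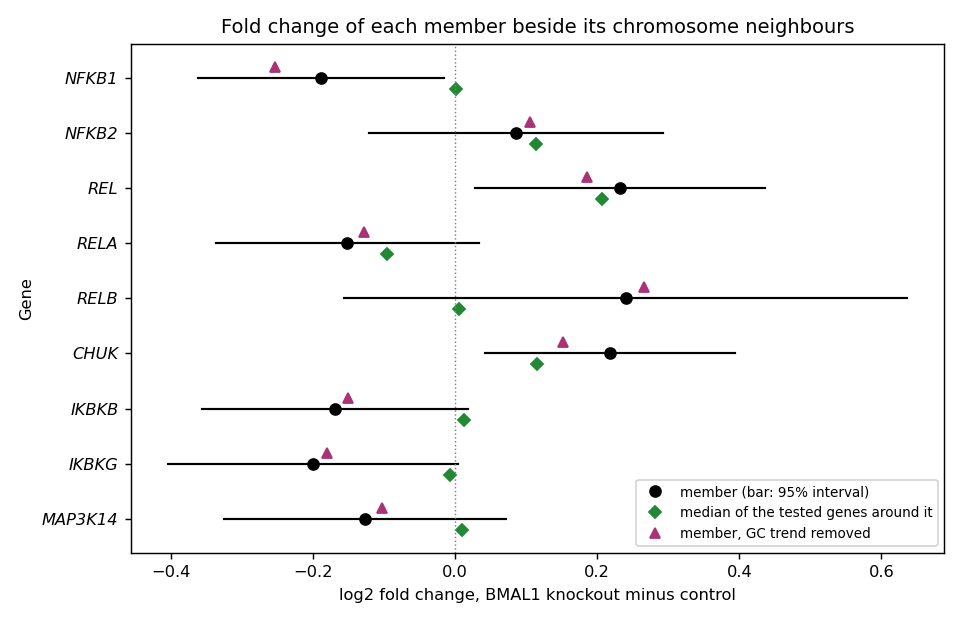
Log2 fold change of each of the 9 genes (circles, with 95% intervals), the median of the tested genes around it on its chromosome (diamonds), and the value with the GC trend removed (triangles). REL, RELA and NFKB2 lie beside their neighbours' medians, while NFKB1, RELB, IKBKB, IKBKG and MAP3K14 have neighbours with a median near 0.

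Genes with a profile most like that of CHUK over the 6 libraries were an assembled locus without a gene name (Pearson r = 0.997 of log2 CPM), IDE (r = 0.994), MASTL (r = 0.994), KCMF1 (r = 0.994) and NRBF2 (r = 0.994). Their log2 fold changes lay between 0.20 and 0.41, and 428 of the 13340 genes averaging 1 CPM or more had an r over 0.9. The points share the difference between the groups, so these values are a description.

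Other genes of the pathway were taken from lists by role, 89 genes in all, of which 84 were tested. At the adjusted threshold of 0.05, 0 of these were higher and 5 were lower, or 5.95%, beside 2.37% of all loci in either direction and 1.36% lower (edgeR's quasi-likelihood test, Benjamini-Hochberg adjusted). At an unadjusted p under 0.05 edgeR counted 5 higher and 17 lower of the 84, beside 9.1% higher and 7.76% lower of all loci. After adjustment DESeq2 called 0 higher and 5 lower, beside 4.47% of the loci it tested in either direction. The median log2 fold change over the 84 was -0.07. The 5 were TNFAIP3, TRAF1, BIRC3, TLR4 and CCL5, and for each of them all knockout libraries lay below all control libraries. They were picked by adjusted p in these same libraries, so the separation adds no support. Over all loci tested, 11.5% were lower without overlap.

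Among 12 genes listed as IkB proteins and deubiquitinases, with the TNFAIP3 partners TNIP1 and TNIP2 counted in, 9 were lower and 3 higher, with a median log2 fold change of -0.14 and 1 called. At an unadjusted p under 0.05 edgeR counted 0 of the 12 higher and 5 lower, beside 9.1% and 7.76% of all loci. TNFAIP3, a ubiquitin-editing enzyme that ends NF-kB signalling and is itself an NF-kB target, measured 48.4, 46.8 and 43.8 CPM in control libraries and 30.5, 29.6 and 32.9 CPM in knockout libraries. The groups were far apart relative to their spread, and the log2 fold change was -0.58 (SE 0.086, adjusted p = 0.00547 by edgeR's quasi-likelihood test, Benjamini-Hochberg adjusted), under 0.05 with any library left out. NFKBIA, the main IkB protein, measured 45.9, 41.0 and 41.6 CPM in control libraries and 31.5, 37.7 and 34.98 CPM in knockout libraries. Its groups did not overlap, and its log2 fold change of -0.30 (SE 0.094) had an adjusted p of 0.120 by the same edgeR test. Over its alternatives that adjusted p ran from 0.0344 with the GC trend removed, the only alternative under 0.05, to 0.381, and it was 0.0632 with DESeq2. TNIP1, a partner of TNFAIP3 and the most abundant of the list per length, measured 110 ± 11.6 and 94.4 ± 8.77 CPM (SD, n = 3), with overlap.

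Of 28 genes listed as adaptors and upstream enzymes, with BTRC, CUL1 and SKP1 of the ubiquitin ligase that acts on IkB proteins after the kinases counted in, 11 were higher and 17 lower, with a median log2 fold change of -0.03 and 2 called. In edgeR 2 of the 28 were higher and 3 lower at an unadjusted p under 0.05, beside 9.1% and 7.76% of all loci. TRAF1, an adaptor of the tumour necrosis factor receptors, measured 34.8, 33.0 and 27.0 CPM in control libraries and 19.6, 21.4 and 20.1 CPM in knockout libraries. BIRC3, a ubiquitin ligase that takes part in the breakdown of the MAP3K14 protein, measured 44.1, 43.98 and 45.7 CPM in control libraries and 34.04, 31.6 and 27.3 CPM in knockout libraries. Neither overlapped, and their log2 fold changes were -0.64 (SE 0.11) and -0.53 (SE 0.096), with adjusted p-values of 0.0112 and 0.0163 by edgeR's quasi-likelihood test, Benjamini-Hochberg adjusted. The adjusted p of TRAF1 was 0.0554 without control replicate 1 and 0.0695 without control replicate 2. That of BIRC3 was 0.05 or more without any one of the control replicates or without knockout replicate 2, and at most 0.0820. IRAK1, a kinase of the Toll-like receptor branch and the most abundant of this list per length, measured 388 ± 29.3 and 340.0 ± 31.0 CPM (SD, n = 3), with overlap.

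Among 12 receptors 11 were tested, of which 6 were higher and 5 lower, with a median log2 fold change of 0.01 and 1 called. An unadjusted p under 0.05 in edgeR was reached by 2 higher and 2 lower, beside 9.1% and 7.76% of all loci. TLR4, the receptor of bacterial lipopolysaccharide, was scarce, with 142, 128 and 177 counts in control libraries and 135, 80 and 136 counts in the deeper knockout libraries. These are 5.29, 4.79 and 6.32 CPM against 3.16, 2.62 and 3.07 CPM. TLR4 had a log2 fold change of -0.88 (SE 0.16, adjusted p = 0.0163 by the same edgeR test), and the adjusted p was 0.0821 without control replicate 3 and 0.0559 without knockout replicate 2. TNFRSF12A, the most abundant receptor of the list per length, measured 249 ± 22.3 and 251 ± 14.5 CPM (SD, n = 3). In the branch that links broken DNA to the kinase complex, 3 of 8 genes were higher and 5 lower, 0 were called by edgeR or by DESeq2, and 0 had an unadjusted p under 0.05 in edgeR. Its most abundant gene per length, PARP1, measured 688 ± 10.1 and 631 ± 26.02 CPM (SD, n = 3) and did not overlap.

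Of 29 genes listed as NF-kB targets 25 were tested, and 20 of these were lower and 5 higher, with a median log2 fold change of -0.17 and 1 called. Targets filed under another role, such as TNFAIP3, which was called lower, were not in this list. Over all loci tested, 47.69% were lower. At an unadjusted p under 0.05 edgeR counted 7 of the 25 lower and 1 higher, beside the 7.76% lower and 9.1% higher of all loci. CCL5, a chemokine, measured 53.9, 49.5 and 44.6 CPM in control libraries and 35.8, 39.5 and 34.4 CPM in knockout libraries. All knockout libraries were lower, with a log2 fold change of -0.43 (SE 0.096, adjusted p = 0.0393 by edgeR's quasi-likelihood test, Benjamini-Hochberg adjusted). Of the fits that each left out a library, only that without knockout replicate 1 kept its adjusted p under 0.05, and the value reached 0.166 without control replicate 1. With library size as the only scaling it was 0.0575, and with a replicate block 0.0697.

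CDKN1A and CDKN2B, cell cycle inhibitors that are used as markers of senescence, had higher values in knockout libraries. IL6, a secreted factor of senescent cells and one of the NF-kB targets, did not: it measured 26.94 ± 2.18 and 23.1 ± 1.203 CPM (SD, n = 3), all knockout libraries were lower, and the log2 fold change was -0.22 (adjusted p = 0.266 by the same edgeR test); it was singled out after its values were seen. CDKN1A, a cyclin-dependent kinase inhibitor induced by p53, measured 113, 109 and 88.9 CPM in control libraries and 127, 158 and 139.8 CPM in knockout libraries. CDKN2B, an inhibitor of the cell cycle kinases that act in G1, was much scarcer, at 6.61 ± 0.1999 and 10.5 ± 0.917 CPM (SD, n = 3). Neither overlapped between the groups. CDKN1A had a log2 fold change of 0.45 and CDKN2B of 0.66, with adjusted p-values of 0.0520 and 0.0160 (edgeR's quasi-likelihood test, Benjamini-Hochberg adjusted). That of CDKN2B stayed under 0.05 without knockout replicate 1 and in no other fit with a library left out, where it reached 0.0768. That of CDKN1A was 0.00291 with DESeq2 and 0.0156 without knockout replicate 1, and ranged up to 0.186 over its alternatives.

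Markers of other cell types were looked at because immune cells express many genes of the pathway. Of 8 immune markers 3 had no counts, and CD3E, CD3D and MS4A1 were these. The summed level of the list was 6.82, 6.84 and 7.39 CPM in control libraries and 3.00, 3.11 and 3.81 CPM in knockout libraries. The gene of the list with the highest CPM was PTPRC, the pan-leukocyte phosphatase, at 6.40 ± 0.145 and 2.36 ± 0.341 CPM (SD, n = 3; adjusted p = 0.00107 by the same edgeR test). The libraries came from a cell line, and any relation of the PTPRC level to the lower values of the pathway genes was not tested. CD14, a monocyte marker, lay on the other side, at 0.413 ± 0.202 and 0.835 ± 0.399 CPM (SD, n = 3), with overlap and a log2 fold change of 0.97 (adjusted p = 0.343 by the same edgeR test). CD79A, LYZ and NKG7 were each under 1 CPM on average in both groups. Of 7 fibroblast markers 2 were tested, led by COL1A1 with 860.0 ± 77.9 and 859 ± 141 CPM (SD, n = 3). DCN and LUM had 0 counts in all libraries. Of 4 endothelial markers the most abundant, VWF, measured 1.203 ± 0.153 and 0.989 ± 0.272 CPM (SD, n = 3).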

How the data were processed

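For 6 libraries the authors deposited a table of counts per gene, taken here as raw counts. The study's methods say that uniquely mapped reads were counted. Reads had been cleaned and mapped to hg38, and the submitters' processing notes name fastp 0.20.1 and HISAT2 2.0.4. Annotation and strandedness of the counting are not given in the sources used here. Columns were matched to samples by name. From the deposited counts, edgeR 4.0.16 in R 4.3.3 computed TMM-scaled CPM and a robust quasi-likelihood fit over the 14860 loci kept by its default low-count filter, with p-values adjusted by the Benjamini-Hochberg method over all of them and 95% intervals from the fit. Total counts ranged from 26893063 to 43563391; within a group, counts of 2 libraries differed by 5.42 to 45.0 times the variance of counting alone, so spread between libraries limits the precision. Exon lengths, GC content of the longest transcript and positions came from GENCODE v44. Of the loci tested, 91.2% had a known GC content. The fit and the GC correction were tested on simulated data.

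The members and gene lists were chosen with earlier results of these data known. Genes named are the 9 members, BMAL1, NFKBIA, CDKN1A and CDKN2B, list genes with an adjusted p under 0.05 (at most 8 per list), the most abundant gene of each list per length over all libraries, and the 5 genes most correlated with the member of smallest p. Other named markers were chosen after their values were seen. Alternatives tried were scaling by DESeq2's size factors or by library size alone, other low-count filters, a replicate block, leaving out each library, DESeq2 1.42.0, limma-voom (limma 3.58.1), thinning to the smallest total, other thresholds, another gene length and a window of 10 genes on either side. Removal of the GC trend and the older quasi-likelihood method of edgeR were added after seeing the data. Some values of genes on or beside these lists are not reported here.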

Additional observations from a re-analysis of the deposited data

How the results depend on the processing

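The 9 subunit and kinase genes kept their directions in all 144 values (16 alternatives each), and 0 of 9 passed an adjusted p of 0.05 by edgeR, DESeq2 or limma-voom in any of them, the smallest being 0.108 (CHUK, GC trend removed). At an unadjusted p under 0.05 edgeR counted 3 of 9. Counts over the whole table moved more. The 150 higher and 202 lower loci became 256 and 379 with DESeq2 and 484 and 593 with the GC trend removed. They ranged from 39 to 323 higher and from 65 to 360 lower when each library was left out, with the most calls without knockout replicate 1. With a replicate block they became 97 and 119; same-numbered libraries did not deviate together (correlations of -0.0896, -0.0517 and -0.00471), so the numbers do not pair the samples, and the block called 0 of 9 members. Pathway genes called lower numbered 5, against 11 with the GC trend removed, where 2 were called higher, and 2 to 5 without each library. The log2 fold change of BMAL1 lay between 0.50 and 0.69 without each library, with an adjusted p of 0.05 or more in 4 of 6 such fits by edgeR. TNFRSF12A, at 0.01, lay between -0.059 and 0.055 without each library and changed sign without control replicate 3 (-0.059) and without knockout replicate 2 (-0.030); the cause was not tested. With the length of the longest transcript, levels of all 9 members moved by more than the SD between replicates.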
